A study of Mus musculus with 12 samples.

Results

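The enzymes of glucose synthesis and of the first step of fructose breakdown were followed across sorted tubules of the mouse kidney. The members were the genes G6pc, Fbp1, Fbp2, Pck1, Pck2, Khk and Pcx, chosen by the gene name that the array design gives a probe. Of these 7 genes, 6 had a probe, with 7 probes among 41174 non-control probes of 27745 distinct gene names. Pck1 was not analysed here. Khk had 2 probes, which are shown separately.

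Gene expression was measured on 12 one-colour arrays from 4 mice, each kidney suspension being passed through a COPAS instrument, a flow sorter for large particles. The groups were tubules with the green fluorescent protein EGFP (EGFP+), which the series describes as distal convoluted tubules (DCT), the total fraction (ALL) and tubules without EGFP (EGFP-), with n = 4 mice in each group. Mice 2 and 4 were male and mice 1 and 3 female. The labels and design text state no strain, age, transgene or treatment, and a fraction is a bulk sample in which fewer cells of a type and less RNA per cell cannot be told apart.

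Arrays had 75th percentiles of the signal between 922 and 2270, and 53.9% to 65.6% of their probes counted as well above background in the scanner software. All levels below are log2 signal minus that percentile, so that 0 is an array's upper quartile. Levels of different probes are not compared with each other. The DCT label was checked against 8 DCT markers, and 8 of 8 were higher in EGFP+ than in EGFP- tubules, with Slc12a3, the sodium chloride cotransporter of the segment, higher by 8.37 on the log2 scale. Of 5 thick ascending limb markers, 4 were also higher, by 0.75 (Slc12a1) to 1.93 (Umod), and Cldn10 was lower (-5.05). The fraction was thus not shown to hold DCT alone. Of 24 proximal tubule markers, 22 were lower, and both markers that did not pass the test, Slc7a13 and Cyp2e1, differed by -3.07 and -4.50.

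Liver and kidney cortex are the organs that release newly made glucose. Pyruvate carboxylase (Pcx) makes oxaloacetate from pyruvate in mitochondria, phosphoenolpyruvate carboxykinase (Pck1 in the cytosol, Pck2 in mitochondria) turns oxaloacetate into phosphoenolpyruvate, and fructose-1,6-bisphosphatase (Fbp1 in liver and kidney, Fbp2 mainly in muscle) and the catalytic subunit of glucose-6-phosphatase (G6pc) bypass the irreversible steps of glycolysis. Ketohexokinase (Khk) phosphorylates fructose, and the carbons of its product can enter the same route. In the kidney these reactions are known from the proximal tubule, while the distal nephron is known for glycolysis.

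Some of the probes, all 60 bases long, are shown because the results turn on what they detect: those that span an exon junction and so bind spliced RNA (Fbp2 and 1 of the Khk probes), and Pck2, whose pattern differed in size from that of the other members. All are given on the transcript strand as in the array files, with coordinates of the mm8 mouse genome per the file headers.
Fbp2, minus strand of chr13:62859115-62863630, a span of 4516 bases: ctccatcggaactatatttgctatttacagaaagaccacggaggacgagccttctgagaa
Khk junction probe, plus strand of chr5:31206237-31207176, a span of 940 bases: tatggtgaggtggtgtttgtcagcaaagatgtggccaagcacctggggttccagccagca
Pck2, plus strand of chr14:54502699-54502758: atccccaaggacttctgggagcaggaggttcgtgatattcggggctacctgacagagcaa
The other member probes each matched an unbroken stretch of 60 bases. G6pc lay at chr11:101193723-101193782 on the plus strand, Fbp1 at chr13:62874438-62874497 on the minus strand, Pcx at chr19:4621637-4621696 on the plus strand and the Khk single-block probe at chr5:31207763-31207822 on the plus strand. Whether these stretches are coding or untranslated was not determined, as no annotation of this build was used. Fbp1 and Fbp2 are neighbouring genes on chromosome 13 in the RefSeq gene order.

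Each probe had 1 spot per array, and none was saturated. The software marked 3 member spots as not uniform, and they were left out: Fbp1 in the ALL and EGFP- fractions of mouse 2, and G6pc in the ALL fraction of mouse 2. All other member values were well above background except Fbp2 in EGFP+ tubules of mice 3 and 4. All 7 probes passed the filter for testing (well above background on at least 4 arrays).

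The first comparison asked how far EGFP+ tubules, the DCT fraction, differ from the other tubules of the same kidneys. G6pc, Fbp1, Pcx and Khk were between 12.6-fold and 34.9-fold lower in EGFP+ than in EGFP- tubules, whereas Pck2 was 1.20-fold lower. Fbp2 was also far lower, but only 2 of 4 EGFP+ arrays measured it well above background, so that the size of its difference depends on the background correction. All 7 probes were lower in the limma fit across all tested probes, with a median difference of -4.16. Of 25819 tested probes, 56.7% differed at this threshold (adjusted p under 0.05), 23.9% being lower and 32.8% higher. A share of 11.7% was lower by at least 4-fold, and the median difference of all probes was 0.14. The adjusted p-values that follow are from limma with Benjamini-Hochberg adjustment over all tested probes, errors of differences are standard errors (SE), and errors of levels are standard deviations (SD).

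Pcx opens the route from pyruvate. Its levels in mice 1 to 4 were 1.94, 2.53, 1.70 and 2.13 in EGFP+ tubules, 4.97, 5.95, 5.49 and 6.30 in ALL tubules, and 5.10, 5.90, 5.51 and 6.39 in EGFP- tubules. Every EGFP+ array lay below every ALL and EGFP- array, and the ALL and EGFP- arrays overlapped. The difference between EGFP+ and EGFP- tubules was -3.65 ± 0.32 (SE), or 12.6-fold lower (95% confidence interval 7.67 to 20.5, adjusted p = 1.6e-06). Pcx was lower in 4 of 4 mice. It had the smallest difference of the strongly lower members here, whereas with normexp background correction that of Fbp2 was smaller (-3.15, against -3.72 for Pcx).

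Pck2, the mitochondrial carboxykinase, gave nearly flat values. Its levels in mice 1 to 4 were 0.57, 0.60, 0.77 and 0.75 in EGFP+ tubules, 0.96, 0.93, 0.86 and 1.08 in ALL tubules, and 0.97, 0.88, 0.92 and 0.95 in EGFP- tubules. The 4 EGFP+ arrays again lay below all others, but by a gap that was small beside those of the other members. The difference between EGFP+ and EGFP- tubules was -0.26 ± 0.094 (SE), or 1.20-fold (95% confidence interval 1.04 to 1.38, adjusted p = 0.0349), and that between EGFP+ and ALL tubules -0.29 (adjusted p = 0.0228). Against EGFP- tubules the call was lost with any 1 mouse left out (adjusted p between 0.0517 and 0.189), with slide as a block (0.0569), with no filter on dim probes (0.100) and with arrays centred on their medians, where the difference was -0.10 (adjusted p = 0.552). Against ALL tubules it was lost with normexp background correction (adjusted p = 0.0625), with no filter (0.0711), with median centring (0.610) and without mouse 1 (0.125), 2 (0.109) or 4 (0.0588), and kept without mouse 3 (0.0450) and with slide as a block (0.0288). Relative to the median of all probes, which is 0.14 here, Pck2 stood at -0.40.

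Fbp1, the bisphosphatase of liver and kidney, had levels in mice 1 to 4 of 2.72, 4.10, 3.23 and 3.85 in EGFP+ tubules. The ALL fraction gave 7.17, 7.39 and 7.83 in mice 1, 3 and 4, and the EGFP- fraction 7.20, 7.27 and 7.74 in the same mice, the spots of mouse 2 having been left out. No EGFP+ array came near the ALL or EGFP- arrays, and these overlapped each other. Fbp1 was lower in EGFP+ than in EGFP- tubules by -3.93 ± 0.32 on the log2 scale (SE, 15.2-fold, 95% confidence interval 9.19 to 25.3, adjusted p = 3.9e-06), and in 3 of 3 mice with both values.

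Fbp2, the bisphosphatase best known from muscle, had levels in mice 1 to 4 of -4.77, -3.98, -5.35 and -6.43 in EGFP+ tubules, 0.77, -0.03, 0.96 and -0.48 in ALL tubules, and 1.09, -0.11, 1.26 and -0.51 in EGFP- tubules. It was thus readily measured in the ALL and EGFP- fractions of 4 of 4 mice and was at the edge of detection in EGFP+ tubules, where mice 1 and 2 were well above background. The difference was -5.57 ± 0.55 (SE), or 47.4-fold (95% confidence interval 20.5 to 109.7, adjusted p = 4.1e-06), and lower in 4 of 4 mice. With the lowest signal well above background on the same array in place of the measured levels of mice 3 and 4, the difference was at least 35.8-fold for this background correction. With normexp background correction it was -3.15 (adjusted p = 2.5e-04). Of 5 skeletal muscle markers, the defining markers Ckm, Myh4 and Tnnt3 were well above background on 0 of the 12 arrays. Acta1, skeletal muscle actin, was well above background on 0 of 4 EGFP+ and 3 of 4 EGFP- arrays. Its measured level was lower in EGFP+ than in EGFP- tubules, the same direction as Fbp2. No bound is given for this difference, since not every EGFP- array measured it well above background. Its measured means were -7.18 in EGFP+ tubules, where no array was well above background, and -5.03 in EGFP- tubules. Mylpf, a myosin light chain, was measured on every array and differed by 0.27 (adjusted p = 0.195). The sum of the linear scaled signals of Acta1 and Mylpf, most of it from Mylpf, was 0.208 to 0.289 in EGFP+, 0.189 to 0.233 in ALL and 0.171 to 0.243 in EGFP- tubules. The part of the muscle markers in the result was not tested.

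G6pc carries out the last step, the release of free glucose. Its levels in mice 1 to 4 were -0.23, 1.16, -0.05 and 0.74 in EGFP+ tubules and 5.31, 5.64, 5.25 and 5.92 in EGFP- tubules. In ALL tubules they were 5.10, 5.34 and 5.91 in mice 1, 3 and 4, with the spot of mouse 2 left out. The EGFP+ arrays stood apart from the rest by several log2 units, while ALL and EGFP- arrays overlapped. G6pc was lower in EGFP+ than in EGFP- tubules by -5.12 ± 0.31 on the log2 scale (SE, 34.9-fold, 95% confidence interval 21.5 to 56.5, adjusted p = 1.7e-07), and in 4 of 4 mice.

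Khk, which starts fructose breakdown, was read by both of its probes. The junction probe had levels in mice 1 to 4 of 1.36, 1.82, 1.35 and 2.18 in EGFP+ tubules, 5.39, 5.78, 5.65 and 6.59 in ALL tubules, and 5.77, 5.80, 5.85 and 6.61 in EGFP- tubules. The single-block probe had 2.70, 3.30, 2.69 and 3.21 in EGFP+ tubules, 6.66, 6.88, 6.93 and 7.72 in ALL tubules, and 6.84, 6.91, 6.99 and 7.79 in EGFP- tubules. Both probes gave the same picture, with EGFP+ arrays far below the rest and mouse 4 the highest of the ALL and EGFP- arrays. The difference between EGFP+ and EGFP- tubules was -4.33 ± 0.29 (SE, 20.1-fold, 95% confidence interval 12.95 to 31.2, adjusted p = 1.4e-07) for the junction probe and -4.16 ± 0.27 (SE, 17.9-fold, 95% confidence interval 11.8 to 27.0, adjusted p = 1.2e-07) for the single-block probe. Each was lower in 4 of 4 mice.

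**Figure D1:**
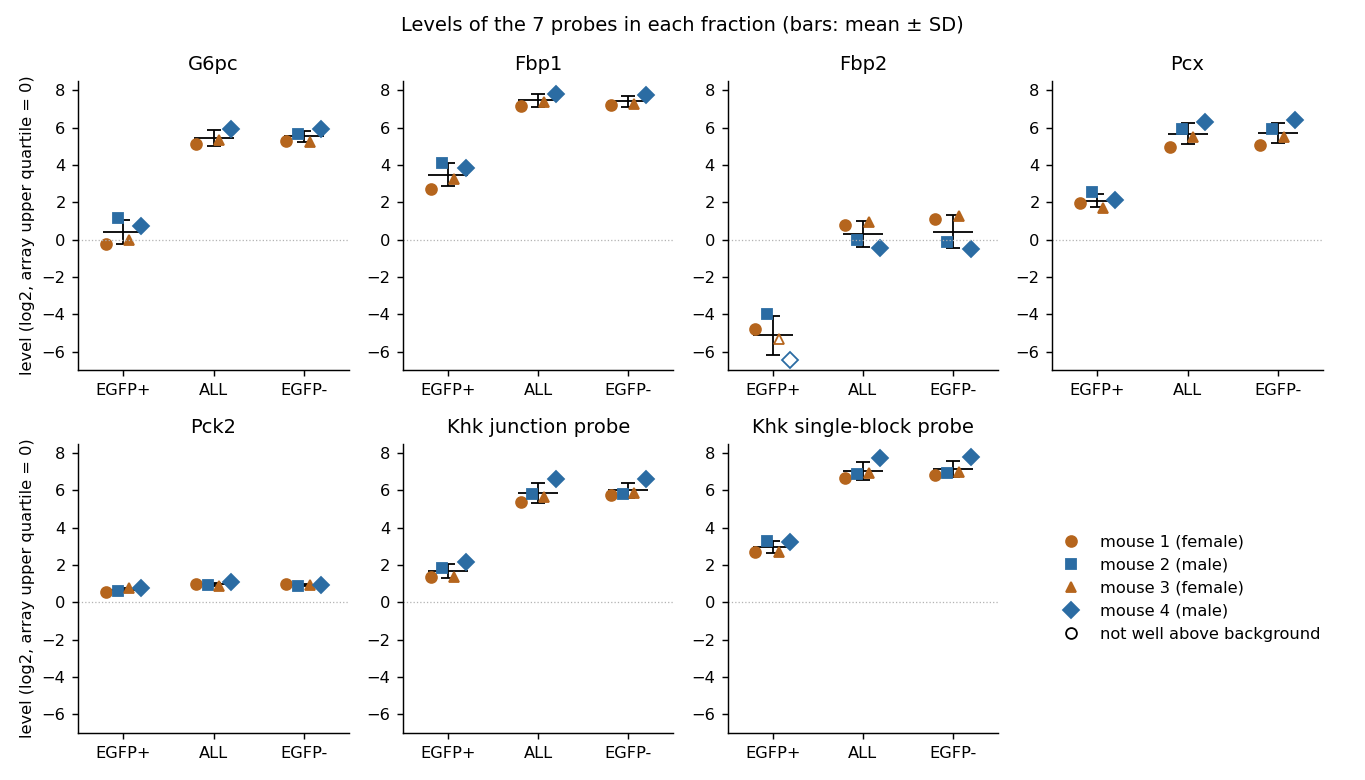
Level of each of the 7 member probes (log2, array upper quartile at 0) on every array, by fraction, with mean ± SD as bars, mice as symbols and open symbols for values not well above background. EGFP+ arrays lie below ALL and EGFP- arrays in every panel, by -0.26 for Pck2 and by -3.65 to -5.57 for the other probes against EGFP- tubules.

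None of the 7 probes had overlapping EGFP+ and EGFP- arrays, as was true in this direction of 23.4% of all tested probes. Within the array slides, which held unequal mixes of mice, the 6 probes other than Pck2 differed by between -2.86 and -6.81 (the last for Fbp2, with a dim EGFP+ spot), and Pck2 by -0.39, -0.11 and -0.18 in slides 1, 2 and 3. Slide 2 gave no Fbp1 value, since its EGFP- spot was left out.

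Expressed as a share of the EGFP- signal of the same mouse, EGFP+ tubules held 2.98% ± 1.03 of G6pc, 5.76% ± 1.16 of Fbp1 (n = 3), 8.30% ± 2.65 of Pcx, 5.03% ± 0.88 of Khk by the junction probe and 5.77% ± 1.69 by the single-block probe (SD, n = 4 mice unless given). For Pck2 the share was 83.8% ± 6.28 (SD, n = 4). Fbp2 had a share of 1.72% in mouse 1 and 6.82% in mouse 2, and in mice 3 and 4, where its EGFP+ spot was not well above background, of at most 1.27% and 4.07%. These Fbp2 shares and limits hold only for the background correction used here. The proximal tubule markers moved with these members. The summed linear signal of the 14 markers with a value on every array was 9.91 to 17.1 in EGFP+, 176 to 247 in ALL and 212 to 254 in EGFP- tubules. The largest part of the EGFP+ sum came from Ggt1, which was 5.41-fold lower (mean levels of 2.55 in EGFP+ and 4.99 in EGFP- tubules). Of the 24 markers, Slc7a13 had a signal clear of background on 2 of 4 arrays of EGFP+ tubules and each of the other 23 on 4 of 4. In mice 1 to 4 the summed EGFP+ share was 4.68%, 6.71%, 4.47% and 5.43%, and the median share of the single markers 2.31%, 5.41%, 2.24% and 3.92%. Markers of other cells were lower too: 5 of 5 podocyte markers (median difference -6.47), 6 of 6 of endothelium (-3.62), 4 of 4 of collecting duct principal cells (-3.80), 4 of 5 of leukocytes (-3.74), 2 of 2 tested erythroid markers (-5.38) and 4 of 6 of smooth muscle and stroma (-3.11). Of thick ascending limb markers 4 of 5 were higher and 1 lower, and of intercalated cell markers 2 of 4 were lower and 2 did not pass. The summed signal of the podocyte list was 0.414 to 1.23 in EGFP+, 18.2 to 45.2 in ALL and 24.9 to 53.0 in EGFP- tubules, and that of the endothelial list 3.88 to 5.02, 40.3 to 69.2 and 50.6 to 82.6 in the same fractions. The part of the marker lists in the result was not tested.

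Mouse 2 had the highest EGFP+ share of the marker sum, and it also had the highest share of G6pc (4.48%, against 2.16% to 2.75% in the other mice), of Fbp2 and of both Khk probes. Pcx did not follow that order, with its highest share, 11.2%, in mouse 1 and its lowest, 5.24%, in mouse 4. Mouse 2 also had the highest summed share of the collecting duct principal cell (9.67%) and endothelial (9.58%) lists. The podocyte list was highest in mouse 1 (2.32%). The leukocyte (7.46%), erythroid (2.93%) and smooth muscle and stroma (28.0%) lists were highest in mouse 4. What set these orders was not tested. Without mouse 2 the differences between EGFP+ and EGFP- tubules were -5.34 for G6pc, -6.13 for Fbp2, -3.74 for Pcx and -4.44 and -4.34 for the Khk probes.

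**Figure D2:**
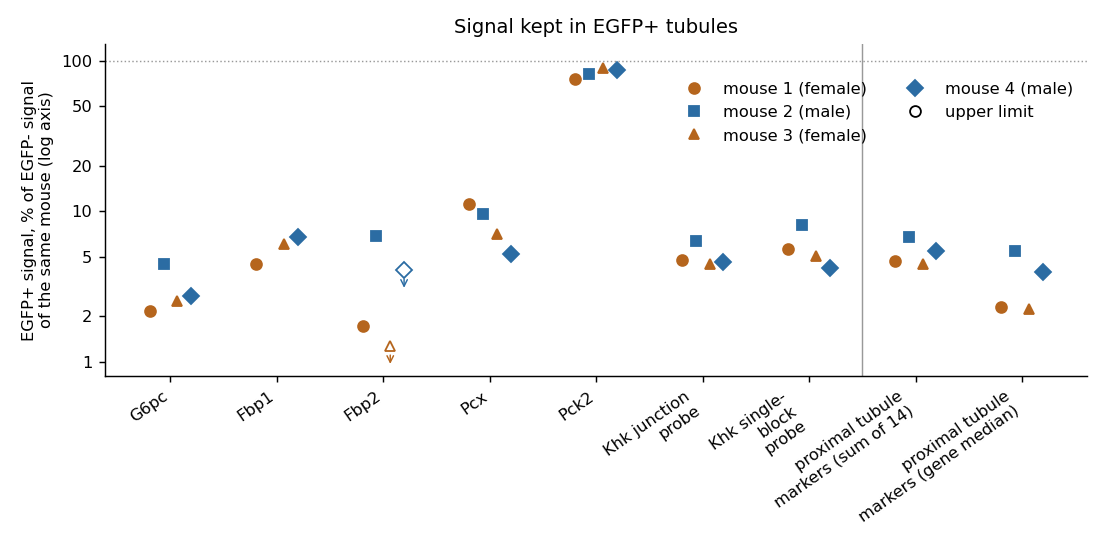
EGFP+ signal as a percent of the EGFP- signal of the same mouse (log axis) for the 7 member probes, and for the proximal tubule markers as the sum of 14 genes and as the median over genes. Open symbols with an arrow are upper limits, for Fbp2 in mice 3 and 4, and hold only for the background correction used here. Pck2 lies at 75.7% to 90.0%, G6pc, Fbp1, Pcx and the Khk probes at 2.16% to 11.2%, Fbp2 at 6.82% or less and the marker sum at 4.47% to 6.71%.

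Set against the total fraction, the same 7 probes were lower in EGFP+ tubules, where 54.0% of all tested probes differed and 22.9% were lower. For Pck2 that call was lost under the alternatives given above. The differences were -5.05 for G6pc, -3.99 for Fbp1, -5.44 for Fbp2, -3.60 for Pcx and -4.17 and -4.07 for the junction and single-block probes of Khk, each with an adjusted p of 6.2e-06 or less. That of Fbp2 again includes the dim EGFP+ spots of mice 3 and 4, and was -2.99 with normexp background correction. All 7 had no EGFP+ array reaching an ALL array, against 21.8% of tested probes in this direction. The comparison shares its EGFP+ arrays with the one above, so it is not a separate measurement of them.

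No member passed the test between the total fraction and the tubules without EGFP. In ALL against EGFP- tubules the 7 probes differed by between -0.16 and 0.06, none passed (adjusted p = 0.999969 each), and the arrays overlapped for every probe. Only 1.08% of tested probes passed in this comparison. The 95% confidence intervals were wide for Fbp2 (-1.34 to 1.08), lay within -0.83 to 0.84 for G6pc, Fbp1, Pcx and Khk, and were narrow for Pck2 (-0.18 to 0.23). These intervals ignore which arrays came from the same mouse, and G6pc and Fbp1 had 3 mice with both values. With mouse as a block they were -0.33 to 0.46 for G6pc, -0.25 to 0.37 for Fbp1, -1.01 to 0.75 for Fbp2 and -0.46 to 0.37 for Pcx, and -0.42 to 0.10 and -0.44 to 0.27 for the junction and single-block probes of Khk. Within mice 1 to 4 the Khk junction probe differed by -0.38, -0.023, -0.20 and -0.027 and the single-block probe by -0.19, -0.038, -0.058 and -0.070. Both were thus lower in ALL tubules in 4 of 4 mice, and neither passed with the block (unadjusted p = 0.207 and 0.587 in limma, adjusted p = 0.999966 each). Both changed sign with quantile normalization and with slide as a block.

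Genes of the wider pathway were read from lists chosen by function, with 1 probe per gene, the tested probe with the highest mean. Of 11 other enzymes and transporters of gluconeogenesis, 2 were lower, 3 higher and 6 did not pass, with a median of 0.25. Slc37a4, the transporter that carries glucose-6-phosphate to G6pc in the endoplasmic reticulum, was lower by -3.47 ± 0.33 (SE, adjusted p = 9.9e-06), with levels of 2.30 ± 0.35 in EGFP+ (SD, n = 4) and 5.78 ± 0.57 in EGFP- tubules (SD, n = 3). Mdh2, the mitochondrial malate dehydrogenase, was higher by 0.65 ± 0.21 (SE, adjusted p = 0.026), and Gapdh, the glyceraldehyde-3-phosphate dehydrogenase, was lower by -0.59 ± 0.17 (SE, adjusted p = 0.0122). Gpi1, the glucose-6-phosphate isomerase that works in both directions, differed by 0.25 without passing.

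The fructose and polyol list had 5 of 7 genes lower and 1 higher, while 1 did not pass, with a median of -4.12. Slc2a5, the fructose transporter, was 43.3-fold lower (-1.50 ± 0.25 in EGFP+ and 3.94 ± 0.36 in EGFP- tubules, SD, n = 4). Slc2a2, the basolateral glucose and fructose transporter that is also on the marker list, was 40.9-fold lower, and Tkfc, the kinase that acts after Khk by phosphorylating glyceraldehyde, was 19.0-fold lower (-4.25 ± 0.28, SE). The gene that was higher was Aldh1b1, a mitochondrial aldehyde dehydrogenase (1.56), and it is named here because it was the only one. The proximal tubule markers were lower beside Khk and these genes, as given above.

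Of 17 genes of substrate entry, 10 were lower and 2 higher, while 5 did not pass, with a median of -1.23. The lactate carriers led the list: Slc5a12, an apical sodium lactate cotransporter and also a marker, was lower by -5.51 ± 0.25 (SE), Slc16a1, the monocarboxylate transporter MCT1, by -5.31 ± 0.34 (SE) and Slc5a8, a second sodium monocarboxylate cotransporter, by -5.16 ± 0.74 (SE). The 2 genes that were higher were Got1 (1.501) and Got2 (0.72), the aminotransferases of the malate-aspartate shuttle, and are named as the whole of that group.

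Of 17 tested regulators of gluconeogenic genes (of 19 listed), 8 were lower and 3 higher, while 6 did not pass, with a median of -0.17. Hnf4a, a nuclear receptor that drives liver and proximal tubule genes and is also on the marker list, was lower by -5.35 ± 0.31 (SE) and Ppara, the fatty acid receptor, by -2.30 ± 0.23 (SE). Ppargc1a (1.61), a coactivator that in liver raises gluconeogenic genes, was higher, as were Pfkfb2 (1.41), a kinase and phosphatase for the regulator fructose-2,6-bisphosphate, and Creb1 (0.38), a factor responsive to cyclic AMP. These are the complete set of higher genes on the list.

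The kinases of glycolysis that work against the members ran the other way for 5 of 7 tested genes, with a median of 2.04 for the list. Pkm, the pyruvate kinase of most tissues, was higher by 4.10 ± 0.24 (SE, 17.1-fold), and Pfkp, the platelet form of phosphofructokinase, by 3.58 ± 0.20 (SE). Pklr, the pyruvate kinase of liver and red cells, had 0 of 4 EGFP+ arrays well above background. For the background correction used here it was at least 7.88-fold lower, with measured means of -6.06 in EGFP+ and -2.25 in EGFP- tubules. This bound sets the EGFP- mean against the lowest signal well above background on each EGFP+ array, or the probe's own where that is higher. Of the listed genes, 43 had more than 1 tested probe. Where the probe used for the list passed, 0 genes had another probe past the threshold in the opposite direction. Genes whose listed probe did not pass were not compared in this way.

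**Figure D3:**
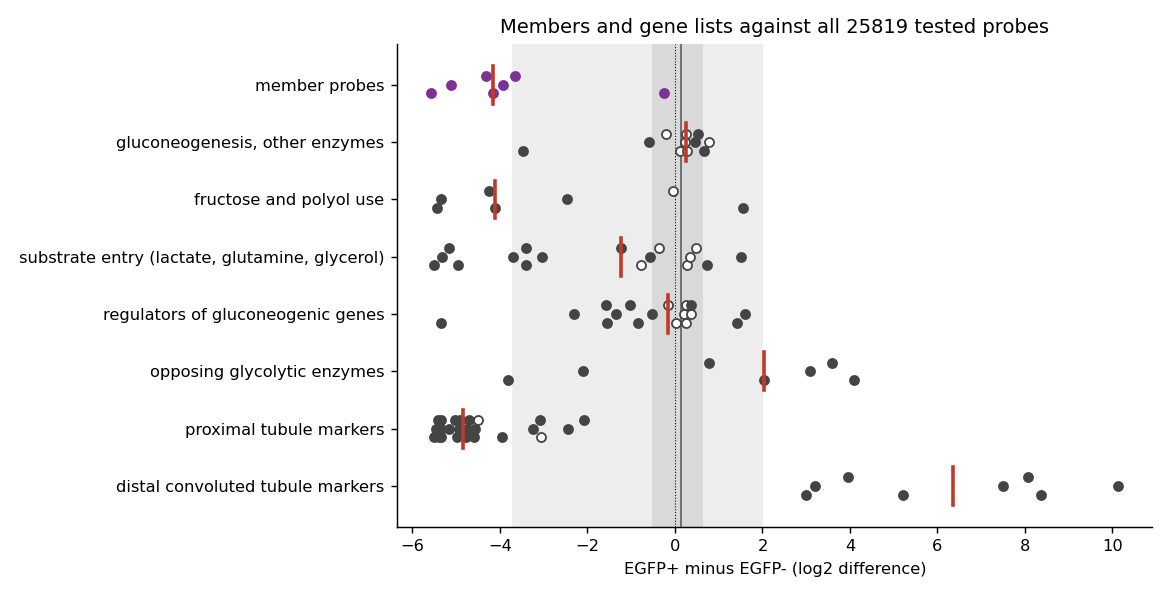
Differences between EGFP+ and EGFP- tubules (log2) of the member probes, of each pathway list and of the proximal tubule and DCT markers, with open circles for genes not past the threshold and red bars for list medians. Grey bands show the middle 50% and 90% of all 25819 tested probes. Member probes have a median of -4.16, fructose and polyol genes -4.12, opposing glycolytic enzymes 2.04 and proximal tubule markers -4.85.

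The promoters of 4 members are shown, the 250 bases before the RefSeq gene start (GRCm38.p6), because the levels of these members moved together or, for Pck2, hardly moved. They were searched on both strands for AAAGTCC (a core of HNF4 sites), TGACGT (the core of the cyclic AMP response element) and TATAAA (the TATA box), none of which overlaps another here. Capitals mark the matches.
G6pc, plus strand of chr11:101367466-101367715: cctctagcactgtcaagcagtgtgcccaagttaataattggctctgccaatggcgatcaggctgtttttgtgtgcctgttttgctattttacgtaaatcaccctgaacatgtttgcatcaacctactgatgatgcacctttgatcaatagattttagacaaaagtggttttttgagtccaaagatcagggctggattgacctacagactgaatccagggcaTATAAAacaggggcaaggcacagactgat
Khk, plus strand of chr5:30921309-30921558: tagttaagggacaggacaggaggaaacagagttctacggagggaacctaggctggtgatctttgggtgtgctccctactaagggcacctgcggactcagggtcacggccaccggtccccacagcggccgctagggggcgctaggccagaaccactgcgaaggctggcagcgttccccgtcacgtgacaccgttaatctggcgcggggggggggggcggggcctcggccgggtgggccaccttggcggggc
Fbp2, minus strand of chr13:62858401-62858650: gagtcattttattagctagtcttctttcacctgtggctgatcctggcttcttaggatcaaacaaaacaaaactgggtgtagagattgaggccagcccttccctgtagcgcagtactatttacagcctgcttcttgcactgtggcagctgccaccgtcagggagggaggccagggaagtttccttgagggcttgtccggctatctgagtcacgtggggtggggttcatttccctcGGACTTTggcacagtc
Pck2, plus strand of chr14:55540016-55540265: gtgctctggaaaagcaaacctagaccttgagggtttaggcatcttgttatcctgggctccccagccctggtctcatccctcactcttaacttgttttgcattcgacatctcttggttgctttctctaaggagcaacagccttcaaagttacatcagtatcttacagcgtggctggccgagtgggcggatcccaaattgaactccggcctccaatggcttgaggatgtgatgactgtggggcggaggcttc
G6pc held TATAAA 29 to 24 bases before its start, and Fbp2 held the HNF4 core on the opposite strand, as GGACTTT, 16 to 10 bases before its start. Khk, Pck2, Fbp1 and both starts of Pcx held none of the letters searched in this window. Only exact letters were searched, so sites that vary from them were not counted, and the absence of such sites was not tested. Of 32851 promoters of this length, 3.58% held AAAGTCC, 6.47% TGACGT and 12.4% TATAAA.

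Across the arrays the strongly lower members varied together. The correlation between members over arrays with both values was 0.999 for G6pc with Fbp1 (10 arrays), 0.999 between the Khk probes (12 arrays), 0.991 for Pcx with the Khk single-block probe (12 arrays) and 0.758 for Fbp2 with Pck2 (12 arrays). Fbp2 was less close to the other strongly lower members, from 0.898 with Pcx (12 arrays) to 0.932 with G6pc (11 arrays). These values mostly restate the gap between EGFP+ and the other arrays, which all such genes share. Among all tested probes, those most like a member by Pearson's r were Folr1 for G6pc (r = 0.999, 11 arrays), Bdh2 for Fbp1 (0.999, 10 arrays), Ephb1 for Fbp2 (0.998, 12 arrays), Aqp11 for Pcx (0.998, 12 arrays), Cryzl2 for the Khk junction probe (0.998, 12 arrays) and Tkfc for the Khk single-block probe (0.998, 12 arrays). The nearest to Pck2 was D230034L24Rik (0.968, 12 arrays).

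The mice also allow male and female kidneys to be compared, with 2 mice each. For G6pc and Fbp1, whose spots of mouse 2 were left out, mouse 4 was the only male, and its spread is assumed to be that of the females. The arrays of mouse 4 had the lowest 75th percentiles: 1170, 922 and 1007 in EGFP+, ALL and EGFP- tubules. Those of the other mice were 1317 to 2270. Levels are relative to this percentile, and its part in the sex differences was not tested. No member passed this comparison, in which 1.06% of 25781 probes did. Averaged over the fractions of each mouse, the male minus female difference was 0.75 ± 0.15 for Pcx (SE, adjusted p = 0.126), 0.74 ± 0.17 for G6pc (adjusted p = 0.188) and 0.64 ± 0.20 for Fbp1 (adjusted p = 0.240). It was 0.57 ± 0.25 and 0.50 ± 0.22 for the Khk probes (adjusted p = 0.303 each), -0.92 ± 0.38 for Fbp2 (adjusted p = 0.286) and 0.02 ± 0.12 for Pck2 (adjusted p = 0.931). For Fbp2 this average includes the dim EGFP+ spots of mice 3 and 4, and it ran from -1.47 to -0.37 with each mouse left out. With normexp background correction, Pcx (0.64, adjusted p = 0.0301) and G6pc (0.69, adjusted p = 0.0369, with mouse 4 as the only male) passed, beside 4783 probes in place of 272.

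The difference of Fbp2 had the opposite sign to those of Pcx, G6pc and Fbp1. In EGFP- tubules its levels were -0.11 and -0.51 in males and 1.09 and 1.26 in females, and in ALL tubules -0.03 and -0.48 in males and 0.77 and 0.96 in females. Males lay below females in both fractions, as they did for 17.7% of all tested probes, and in EGFP+ tubules the sexes overlapped near background. The difference in EGFP- tubules was -1.49 ± 0.64 (SE, adjusted p = 0.203), and it was -1.69 (adjusted p = 0.0299) without mouse 2. That value rests on mouse 4 as the only male, whose spread is taken from the other groups, and leaving out any other mouse gave adjusted p-values of 0.116 to 0.563. It was -1.78 within slide 3, and in ALL tubules -0.99 within slide 2, each from 1 male and 1 female array. In EGFP+ tubules within slide 1 it had the opposite sign, 0.79, from mice 2 and 1, whose spots were well above background.

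Pcx had both males above both females in all 3 fractions, a pattern of 4.87% of tested probes. In EGFP- tubules its levels were 5.90 and 6.39 in males and 5.10 and 5.51 in females, with a difference of 0.84 ± 0.27 (SE, adjusted p = 0.107) and of 0.87 within slide 3. The Pcx difference was 0.46 in ALL tubules within slide 2 and 0.60 in EGFP+ tubules within slide 1. Each value within a slide is from 1 male and 1 female array. G6pc stood at 5.64 and 5.92 in males and 5.31 and 5.25 in females (0.51 ± 0.19, SE, adjusted p = 0.168). Of all tested probes, 6.08% passed in EGFP- tubules. This fit by sex took its error from the arrays of all fractions and had no term for the mouse. Within mice, the deviations of ALL and EGFP- arrays from their group means correlated at 0.697 to 0.807. Arrays of the same mouse were nevertheless counted as independent. The errors, p-values and share passing in EGFP- tubules, with those of Fbp2 above and Khk below, hold only under that assumption. The Khk probes differed in EGFP- tubules by 0.40 and 0.44 (adjusted p = 0.480 and 0.452). These values rest on mouse 4, whose scaled levels stood apart from those of the other mice. Before scaling, its EGFP- signals of 98708 and 222531 lay within those of the other mice (88678 to 118254 and 195379 to 249151). Without mouse 4 the differences were -0.0048 and -0.0015 (adjusted p = 0.994 and 0.998), and without mouse 2, with mouse 4 as the only male, 0.81 and 0.87 (adjusted p = 0.0495 and 0.0474).

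A further test asked, from the difference within each mouse, whether the deficit of EGFP+ tubules depended on sex. The male minus female change of that difference was 1.34 ± 0.73 for Fbp2 (SE, adjusted p = 0.518), 0.58 ± 0.32 for G6pc (adjusted p = 0.520) and -0.33 ± 0.41 for Pcx (adjusted p = 0.755). The value of Fbp2 includes the dim EGFP+ spots of mice 3 and 4. No member passed. In the same limma test 0 of 25795 probes passed, and 2947 had an unadjusted p under 0.05.

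**Figure D4:**
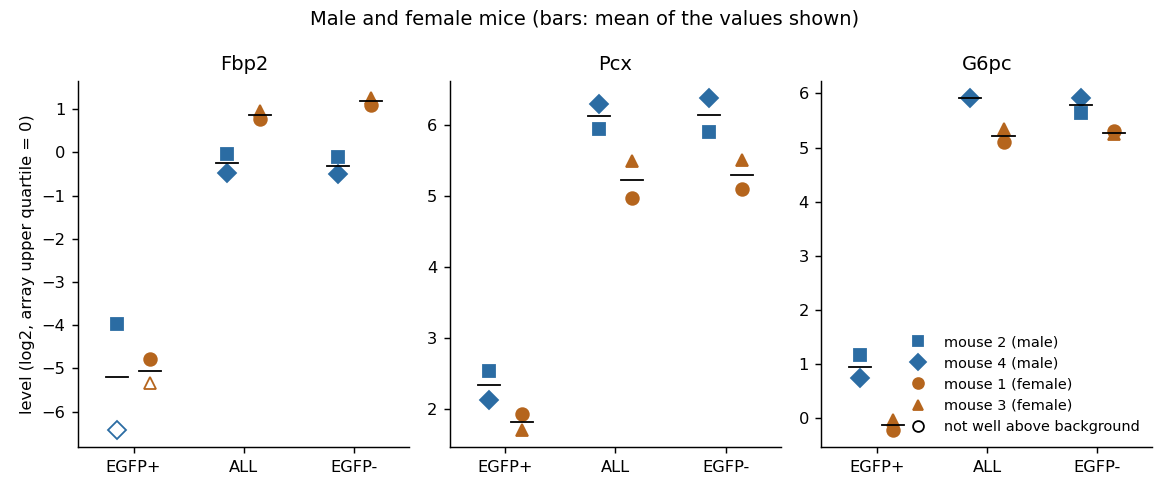
Levels (log2, array upper quartile at 0) of Fbp2, Pcx and G6pc by fraction in male and female mice, with the mean of the values as a bar and open symbols for values not well above background. In EGFP- tubules Fbp2 is lower in males (-0.11 and -0.51) than in females (1.09 and 1.26), and Pcx is higher in males (5.90 and 6.39) than in females (5.10 and 5.51).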

How the data were processed

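Per the file headers, the deposited scanner files hold Agilent Feature Extraction 9.5.3.1 output, which gives each spot a background-corrected processed signal, a linear intensity. Per the labels, RNA was amplified and labelled with Cy3. The series' value table was not used. From these intensities, control spots and outlier spots were left out, spots of one probe were averaged, and log2 processed signal minus the array's 75th percentile was fitted with limma 3.58.1 in R 4.3.3. Of 41174 probes, the 25819 with 4 or more of the 12 arrays well above background were tested, with a coefficient per fraction and Benjamini-Hochberg adjustment (threshold 0.05). The sexes were compared by means over the fractions of a mouse, and within fractions by 6 groups of 2 arrays. The fit within fractions had no term for the mouse. The effect of sex on the fraction difference was tested by per-mouse differences. Fractions of a mouse come from the same animal. Their deviations from the group means correlated at 0.225 to 0.807, and the mouse as a block was an alternative. The fits were tested on simulated data with independent arrays, which did not include the correlation between fractions of a mouse.

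Alternatives were normexp background (offset 50), quantile normalization, median centring, outlier spots kept, other filters on dim probes, slide or mouse as a block and each mouse left out. The number of arrays limits the precision. Members and gene lists were chosen with earlier results of these data known. The text names every member probe and, from each pathway list, the 3 genes with the largest difference among those past the threshold, and others where said. Probes were named through accession (24375), current symbol (6301) or older symbol (2426) in a RefSeq table, and 8072 kept the file's name. A few genes of the pathway lists are not reported here and were left out of the lists' counts.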

Additional observations from a re-analysis of the deposited data

Results flagged for a closer look

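The level of the Khk junction probe in EGFP- tubules was 6.61 in mouse 4, and the other 3 mice lay between 5.77 and 5.85. The single-block probe of Khk had 7.79 in the same array, against 6.84 to 6.99 in the other mice. In each case the gap to the nearest mouse was a large part of the whole range of the group (0.902 and 0.844 of it). Both values come from the same array and the same gene. Of 34 groups of 4 arrays checked, these 2 stood apart in this way, and chance alone gives about 1 in 20. Without mouse 4 the differences between EGFP+ and EGFP- tubules were -4.29 and -4.02 for the Khk probes. The EGFP- array of mouse 4 had the lowest 75th percentile of its group (1007). Before scaling, its Khk signals lay within the range of the other mice. The part of the scaling was not tested.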

How the results depend on the processing

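The 6 member probes other than Pck2 kept their direction and their call in EGFP+ against EGFP- and against ALL tubules under every alternative that gave a value. Fbp2 had none when all 12 arrays had to be well above background. With mouse as the replicate block, G6pc differed by 0.067 in ALL against EGFP- tubules in place of -0.08, no member call changed, and 16627 probes passed in EGFP+ against EGFP- tubules in place of 14631. Against ALL tubules Pck2 lost its call with normexp (-0.27, adjusted p = 0.0625), median centring (-0.09, 0.610), no filter (-0.29, 0.0711) and without mouse 1, 2 or 4 (0.125, 0.109 and 0.0588). Against EGFP- tubules it lost it with median centring (-0.10), no filter (-0.26) and slide as a block (-0.23). Over each mouse left out, Pck2 differed by -0.29 to -0.21 from EGFP- and by -0.35 to -0.25 from ALL tubules, and 6 member probes were lower than in EGFP- tubules and 6 to 7 lower than in ALL tubules.

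With normexp, 7859 probes passed in EGFP+ against ALL tubules (13931 in the reported fit), 184 in ALL against EGFP- (279), 4783 in male against female mice (272) and 221 in EGFP- tubules by sex (1569). By sex, 842 passed with median centring, 53 with no filter and 437 with all 12 arrays required, and in EGFP- tubules 718 with no filter. Sex dependence gave 11 probes with quantile normalization, 19 with median centring and 69 with all 12 arrays required, in place of 0. Leaving out each mouse gave 103 to 330 probes in ALL against EGFP-, 27 to 51 by sex and 162 to 2440 by sex in EGFP- tubules. Each such fit by sex has 1 mouse of that sex, assumed to vary like the others. Calls were higher for 57.6% of probes in EGFP+ against ALL tubules and 67.7% with median centring, for 78.3% by sex and 91.0% with normexp, and for 68.1% by sex in EGFP- tubules, 79.2% with normexp and 79.0% with median centring. The median difference of all probes in EGFP+ against EGFP- tubules was 0.14, and 0.34 with normexp and 0.30 with median centring. Pck2 relative to it was -0.40, -0.64 and -0.40. Median centring differs from the reported scaling only by a constant on each array, so the first and last values had to be alike.

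Differences near 0 changed sign. In ALL against EGFP- tubules these were Fbp1 (-0.0054 with normexp, -0.019 with outlier spots kept), Pcx (0.21 with quantile normalization, 0.036 with slide as a block), Pck2 (-0.032 with normexp, -0.014 with median centring), the Khk junction probe (0.075 and 0.0095 with quantile normalization and slide) and the single-block probe (0.050 and 0.059 with the same). By sex, Pck2 gave -0.020 with normexp and -0.025 with quantile normalization, and in EGFP- tubules Fbp1 gave -0.070 with quantile normalization and Pck2 0.12 with median centring. In sex dependence, Pck2 gave -0.15 and the Khk single-block probe -0.066 with median centring. Over each mouse left out, the ranges that cross 0 were -0.18 to 0.023 for G6pc and -0.0052 to 0.058 for Pck2 in ALL against EGFP-, -0.038 to 0.084 for Pck2 by sex, -0.065 to 0.0028 for Pck2 and -0.0048 to 0.81 and -0.0015 to 0.87 for the Khk probes by sex in EGFP- tubules, and -0.77 to 0.12 for Pcx, -0.089 to 0.16 for Pck2 and -0.35 to 0.60 for the Khk single-block probe in sex dependence. Slide as a block in the sex comparison of EGFP- tubules was chosen after seeing the data. The causes were not tested.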
